A study of Mus musculus with 9 samples.

Results

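HR+ cells of the mouse mammary gland were compared between day 7 and day 3 of pregnancy. The comparison used the 3 arrays of mice at day 7 and the 3 arrays of mice at day 3, 1 array per animal, and every probe of the normalised table whose mean signal reached the background level of 100 in at least 1 of both stages. These were 17269 of 45281 probes, and 14316 of them reached that level at both days, 1535 at day 7 alone and 1418 at day 3 alone. They covered 10571 of 19090 named genes, while 2467 of these probes carried no gene name. The pregnant animals were female FVB mice, mated at 9 to 11 weeks of age and without a genetic modification, and all had received the thymidine analogue EdU 24 hours before harvest. Pregnancy was timed from the plug, and embryos were seen in the uterus at day 7. Luminal cells were gated on CD24 and CD49f and HR+ cells on Sca1 and CD49b after removal of CD45+ cells, and RNA equal to that of 167 of the 1000 sorted cells was amplified in 2 rounds before hybridisation. The virgin mice of the series, in metestrus, entered no test, and their levels are given only where they help to place a value.

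HR+ cells are the luminal cells that carry receptors for oestrogen and progesterone. They sense the hormones of pregnancy and pass the signal to their receptor-negative neighbours through secreted factors, of which RANKL (the product of Tnfsf11) and Wnt4 are the best known. Early in pregnancy the epithelium enters a wave of division that builds the side branches and alveoli. Cells that divide carry high levels of transcripts for origin licensing, DNA synthesis and chromosome segregation, many of which are under the control of E2F factors in S phase or of the MuvB complex in G2 and mitosis.

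Values are log2 normalised signals of the brightest probe of a gene, and changes are log2 fold changes of day 7 over day 3 with their standard error (SE), n = 3 animals each. Calls required a 2-fold difference together with an adjusted p of at most 0.10 in limma, adjusted over all 17269 probes, and any tested probe of a gene could carry its call. Over these probes the arrays correlated at 0.974 to 0.983 among day 7 animals, at 0.986 to 0.991 among day 3 animals and at 0.945 to 0.958 between the days, which are correlations across probes that share their arrays. The mean raw signal was 348 to 440 at day 7 and 353 to 520 at day 3. The day 7 arrays (-31.9 to -28.5) and the day 3 arrays (25.4 to 33.9) lay at opposite ends of the first principal component, which took up 62.6% of the variance. The other main component, with 15.2%, held no difference between days and set day 7 replicate 3 (-29.5) apart from day 7 replicates 1 (10.4) and 2 (20.0). Which arrays shared a six-sample chip is not given in the sources used here, so a chip effect was not tested. In sorted cells of mixed state, fewer cells that express a gene and less RNA per cell cannot be told apart.

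The luminal label held at both days. The luminal keratin Krt8 was at 13.87 to 13.97 in the 3 day 7 arrays and 14.19 to 14.28 in the 3 day 3 arrays, and Krt18 at 12.75 to 12.97 at day 7 and 13.02 to 13.08 at day 3. Of 13 tested HR+ markers, 3 rose and 3 fell, and their summed linear signal was 27600 to 28720 at day 7 and 32870 to 34250 at day 3. The receptor genes Pgr (7.90 to 8.51 at day 7, 8.07 to 8.17 at day 3) and Esr1 (6.82 to 7.07 at day 7, 6.84 to 6.88 at day 3) overlapped between the days and were not called, and the Esr1 probe lay just above background throughout. Prlr, Areg and Ly6a, the gene of the Sca1 antigen used in the gate, were not analysed here. Of the 12 tested HR- luminal markers, 3 rose and none fell (Csn2, Csn1s1 and a dimmer probe of Mfge8; 1 with median scaling or without day 3 replicate 2), with a summed signal of 18920 to 31650 at day 7 and 10970 to 15400 at day 3. Most of that sum was Mfge8, whose brightest probe was at 14.02 to 14.64 at day 7 and 13.14 to 13.54 at day 3 and was not called. Elf5, which defines the HR- luminal lineage, stayed near background at both days (6.61 to 6.92 at day 7, 6.44 to 6.76 at day 3). Of 9 basal markers, 1 was called (Trp63, higher, lost with median scaling and without day 7 replicate 2 or 3 or day 3 replicate 2 or 3; 3 with Cyber-T), and the basal keratin Krt14 spread widely within a stage, with 8.76, 10.38 and 12.87 at day 7 and 9.77, 7.24 and 7.34 at day 3. The summed basal signal was 3391 to 13580 at day 7 and 1572 to 4835 at day 3. Of 7 endothelial markers, Vwf, the gene of von Willebrand factor, was called higher (1.84), while its other probe gave 0.65 and was not called. The summed signal of the list was 4059 to 6247 at day 7 and 1608 to 2120 at day 3. Most of that sum was Vwf (11.71 to 12.45 at day 7, 9.95 to 10.55 at day 3). In 3 of the 7 the day 7 arrays all exceeded the day 3 arrays, against 17.5% of all genes. The median was 0.16, and Kdr, Tek, Emcn and Eng, at or below it, had changes of -0.08 to 0.16. Of 8 fibroblast markers, Dcn and Fbln1 fell, and the summed signal was 1188 to 1481 at day 7 and 3227 to 3742 at day 3. The list did not fall as a whole, since 5 of the 8 had a change above 0 and the median was 0.16. The part of such cells in the results below was not tested. Of 5 macrophage markers, the lysozyme genes Lyz1 and Lyz2 rose, while Csf1r (6.86 to 7.01 at day 7, 6.91 to 7.03 at day 3) was level and 8 others with a named probe, among them Adgre1, did not reach background. None of 2 lymphocyte and 3 adipocyte markers was called by limma or Cyber-T, and none had an unadjusted p under 0.05. Of 5 erythroid markers 1 was called (Hba-a1, higher, lost without day 7 replicate 1 or day 3 replicate 1), against 4 without day 7 replicate 3 and 3 with Cyber-T, and the adult beta globin gene Hbb-bs was at 11.44 and 11.00 in day 7 replicates 1 and 2 but at 6.63 in day 7 replicate 3, against 6.36 to 6.56 at day 3.

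In all, 316 of 10571 genes were called higher at day 7 (2.99%) and 272 lower (2.57%), 5.56% in either direction. Counted as probes, 397 of 17269 were higher (2.3%) and 340 lower (1.97%). On the brightest probe alone the counts were 303 (2.87%) and 260 (2.46%), and no gene had probes called in opposite directions. The median change of all genes was -0.01. Among the called genes, 37 were higher and 32 lower by at least 4-fold, and 8 higher and 4 lower by at least 8-fold. The 3 day 7 arrays all lay above the 3 day 3 arrays for 1845 genes (17.5%) and all below them for 2148 (20.3%), so a lack of overlap between the days was common. Scaling the arrays to a common median in place of quantile normalisation gave 291 genes higher and 378 lower, so the share of higher genes among those called was 53.7% with the deposited values and 43.5% with median scaling. The gene lists used below were chosen with results of these arrays known, and their counts are therefore descriptions.

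**Figure D1:**
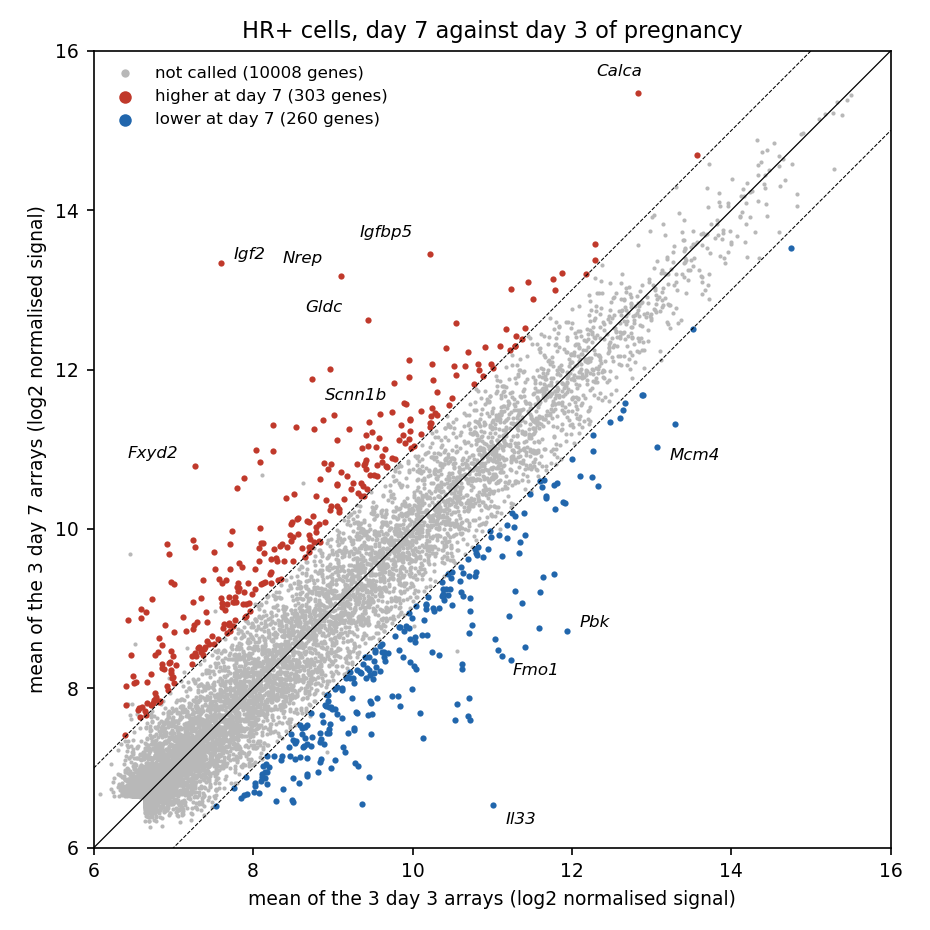
Mean log2 normalised signal of each of 10571 genes in the 3 day 7 animals (vertical axis) against the 3 day 3 animals (horizontal axis), with genes called on their brightest probe in red (303 higher at day 7) and blue (260 lower); the solid line marks equal levels and the dashed lines a 2-fold change. Igf2 lies farthest above the line and Il33 farthest below it.

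Many genes of DNA replication fell between the days. Of 23 tested genes of origin licensing and firing, 9 fell (39.1%, against 2.57% of all genes) and 1 rose, with a median change of -0.86 against -0.01 for all genes. Of 29 genes of the replication fork and of chromatin copying, 10 fell and none rose, and all 29 had a change below 0 (median -0.90, 26 of 29 without overlap of the days, against 20.3% of all genes). Of 10 genes of deoxynucleotide synthesis, 3 fell, and Samhd1, a phosphohydrolase that degrades deoxynucleotides, was called higher on a dimmer probe only.

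The MCM proteins form the helicase that unwinds DNA at each origin. Mcm5 was at 9.11, 9.90 and 9.18 at day 7, against 11.85, 11.89 and 11.18 at day 3 (-2.24, SE 0.27, adjusted p = 0.0037, limma). Mcm6 was at 7.06, 7.21 and 6.80 at day 7, against 9.69, 9.47 and 8.81 at day 3 (-2.29, SE 0.24). Neither gene overlapped between the days, and in both the day 7 animals stood at a small fraction of the day 3 signal, 4.72-fold lower for Mcm5 and 4.91-fold lower for Mcm6. Mcm4 (-2.05, SE 0.23) and Mcm2 (-1.48, SE 0.20) fell as well, while Mcm7 (-0.85, SE 0.17, adjusted p = 0.018, limma) missed the fold threshold and Mcm3 was near background at both days. Mcm10, which helps to activate the helicase, fell by 2.72 (SE 0.32), with -0.80 and -0.29 on its dimmer probes, which were not called. Cdt1 and Cdc6 load the helicase onto origins. Cdt1 was at 8.27, 8.69 and 8.41 at day 7, against 10.60, 10.19 and 9.93 at day 3 (-1.79, SE 0.19), and Cdc6 fell by 1.49 (SE 0.16). Cdc45 (-1.74) and Gins2 (-1.28), which complete the active helicase, fell too.

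One licensing gene went the other way. Cdc7, the kinase that fires licensed origins, was at 12.75, 13.03 and 12.89 at day 7, against 11.61, 11.58 and 11.33 at day 3 (1.38, SE 0.12, adjusted p = 0.0013, limma), with no overlap. Cdc7 was at 8.13 to 9.48 in the virgin mice, so its level at day 7 was above that of both other stages in every animal.

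At the fork itself, Uhrf1, which recruits the maintenance methyltransferase to newly copied DNA, was at 7.68, 7.96 and 7.17 at day 7, against 10.84, 10.87 and 9.87 at day 3 (-2.92, SE 0.32, adjusted p = 0.0027, limma). The methyltransferase Dnmt1 fell by 1.10 (SE 0.19), although its fold was just under 2 without day 7 replicate 3 (-0.95) or day 3 replicate 2 (-0.99). Chtf18 of the clamp loader fell by 2.00. Tipin of the fork protection complex (-1.92), the topoisomerase Top2a (-1.69), the checkpoint adaptor Clspn (-1.63) and the ligase Lig1 (-1.31) fell too. Pcna, the sliding clamp, had a dim probe (6.71 to 6.90 at day 7, 6.88 to 7.40 at day 3) and was not called. Rrm2, the regulated subunit of ribonucleotide reductase, was at 7.50, 8.46 and 7.44 at day 7, against 10.79, 10.55 and 10.32 at day 3 (-2.76, SE 0.28). Its partner Rrm1 (-1.58, SE 0.17) and the thymidine kinase Tk1 (-2.21, SE 0.18) fell with no overlap of the days.

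Genes of mitosis had the highest share of falls among the lists counted. Of 39 tested, 19 fell (48.7%, against 2.57% of all genes) and none rose, 38 of 39 had a change below 0 and the median was -0.98. Their summed linear signal was 7831 to 11910 at day 7 and 28710 to 36510 at day 3. Pbk, a kinase of dividing cells, was at 8.75, 9.24 and 8.18 at day 7, against 12.01, 12.16 and 11.64 at day 3, a 9.29-fold fall (-3.22, SE 0.27, adjusted p = 0.0013, limma). Kntc1, a kinetochore protein of the spindle checkpoint, was at 7.69, 8.57 and 6.54 at day 7, against 10.85, 10.89 and 10.42 at day 3 (-3.12, SE 0.47). Both genes were far apart between the days, but the spread among the day 7 animals was wider than among the day 3 animals. The spindle protein Nusap1 (-3.03, SE 0.41), Anln of the cleavage furrow (-2.88, SE 0.34) and Cdca3, which marks the inhibitor of mitotic entry for degradation (-2.83, SE 0.29), fell as far.

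Within the segregation machinery, Bub1b of the spindle checkpoint was at 7.39, 8.06 and 7.63 at day 7, against 10.28, 10.16 and 9.86 at day 3 (-2.41, SE 0.19), and its other probe gave -2.25. Cdc20, which activates the anaphase-promoting complex, was at 8.36, 9.45 and 8.90 at day 7, against 11.34, 11.21 and 11.09 at day 3 (-2.31, SE 0.26), and its other 2 probes gave -2.62 and -1.93. Every probe of both genes therefore fell. Prc1 of the central spindle (-2.42), Cdca8 of the chromosomal passenger complex (-2.34, other probe -0.10 near background) and the kinases Plk1 (-1.78) and Aurka (-1.41) fell too. So did the centromeric histone Cenpa (-1.59), the checkpoint protein Mad2l1 (-1.50) and the spindle assembly factor Tpx2 (-1.38). Aurkb fell by 1.00, and it dropped just under the fold threshold if day 7 replicate 1 (-0.95), day 7 replicate 3 (-0.99) or day 3 replicate 1 (-0.99) was left out.

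Among 26 kinesins, 6 fell and 1 rose, while the median was -0.08, so the change sat in a part of the family. Kif22, which moves chromosome arms, fell by 2.05 (SE 0.24), and Kif4 (-1.93), Kif23 of the midbody (-1.79), Kif2c (-1.74) and Kif15 (-1.41) fell too, all motors of mitosis. Dimmer probes gave -0.25 and -0.33 for Kif4 and 0.07 and -1.22 for Kif23. Kif5c, a motor of cargo transport best known in neurons, was at 7.35, 7.97 and 7.17 at day 7 and 9.14, 9.38 and 9.28 at day 3 (-1.77, SE 0.21). Its level in the virgin mice was higher than at both days, at 12.04 to 12.29. Kif27, a kinesin linked to cilia, rose by 1.42 (SE 0.15) on its brightest probe, and its other probe gave -0.12.

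Of 13 cyclins and cyclin-dependent kinases, 2 fell. Cdk1, the kinase of mitotic entry, was at 6.68, 6.64 and 6.69 at day 7, at background, against 8.07, 8.04 and 7.56 at day 3 (-1.22, SE 0.15). The phosphatase Cdc25c, which activates it, fell by 1.25. Ccnd1, the G1 cyclin downstream of many growth signals, had 11.67 to 12.06 at day 7 and 12.36 to 12.68 at day 3, without overlap but under the fold threshold (-0.64, SE 0.14, adjusted p = 0.023, limma). Ccnb1 was not analysed here.

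Of 13 genes of the E2F and RB families and of the MuvB complex, 4 fell and none rose (median -0.87). E2f1 itself was at 7.39, 7.17 and 6.42 at day 7, against 9.14, 8.80 and 8.98 at day 3 (-1.98, SE 0.25, adjusted p = 0.0040, limma). Its dimerisation partner Tfdp1 (-1.35, SE 0.11), the pocket protein Rbl1 (-1.24, SE 0.15) and the MuvB subunit Lin54 (-1.46, SE 0.11) fell without overlap of the days.

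Of 8 inhibitors of cyclin-dependent kinases, 1 rose and 1 fell (12.5% each, median -0.08). Cdkn1c, which encodes the imprinted inhibitor p57, was at 9.90, 9.47 and 10.57 at day 7, against 7.23, 8.65 and 7.33 at day 3 (2.24, SE 0.44, adjusted p = 0.016, limma), with no overlap although day 3 replicate 2 was well above the others of its day. Cdkn3, a phosphatase that is itself expressed in dividing cells, fell by 1.62 (SE 0.15). Cdkn1a, which encodes p21, was not called, with 9.27 to 9.56 at day 7 and 9.41 to 9.69 at day 3.

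Of 27 genes of DNA repair and its checkpoints, 6 fell and none rose (median -0.65), and 3 fell without day 3 replicate 2. Rad54l, a motor protein of homologous recombination, was at 6.99, 7.12 and 6.56 at day 7, against 9.51, 9.68 and 9.18 at day 3 (-2.57, SE 0.19). Rad54b, its relative, was at 6.56, 9.05 and 6.52 at day 7, against 10.26, 10.28 and 9.87 at day 3 (-2.76, SE 0.66, adjusted p = 0.032, limma). In Rad54b the fall differed between animals, since day 7 replicate 2 kept a signal that the 2 other day 7 animals had lost, and the call was lost without day 3 replicate 1 (adjusted p = 0.107, limma) and without day 3 replicate 2 (adjusted p = 0.105, limma). The uracil glycosylase Ung (-1.33), the helicase Blm (-1.18), and Rad50 (-1.07) and Mre11a (-1.05) of the break-sensing complex made up the rest. Rad50 lost its call with median scaling and without day 7 replicate 3, day 3 replicate 1 or day 3 replicate 2, and Mre11a fell just short of 2-fold without day 7 replicate 2 or day 3 replicate 2.

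Taking the 8 lists of replication, nucleotide supply, mitosis, kinesins, cyclins, E2F and repair as 1 set of 180 tested genes, 59 were lower at day 7 (32.8%, against 2.57% of all genes), 3 were higher, and the median change was -0.73. None of the 59 overlapped between the days, and their folds ran from 2.01 to 9.29. The call itself requires a 2-fold difference and favours such a separation, so neither adds to the count. The 12 defence, 3 EGF and 4 milk protein genes called on their brightest probe did not overlap either. Day 7 replicate 2 was the highest of its day for 48 of the 59 genes, and day 7 replicate 3 the lowest for 32. The 59 genes were still above the virgin level in most cases: the day 7 mean exceeded the virgin mean for 49 of 59, and the day 3 mean for 58 of 59. All 3 day 7 arrays lay above all 3 virgin arrays for 27 of the 59 genes, and all 3 day 3 arrays for 56.

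**Figure D2:**
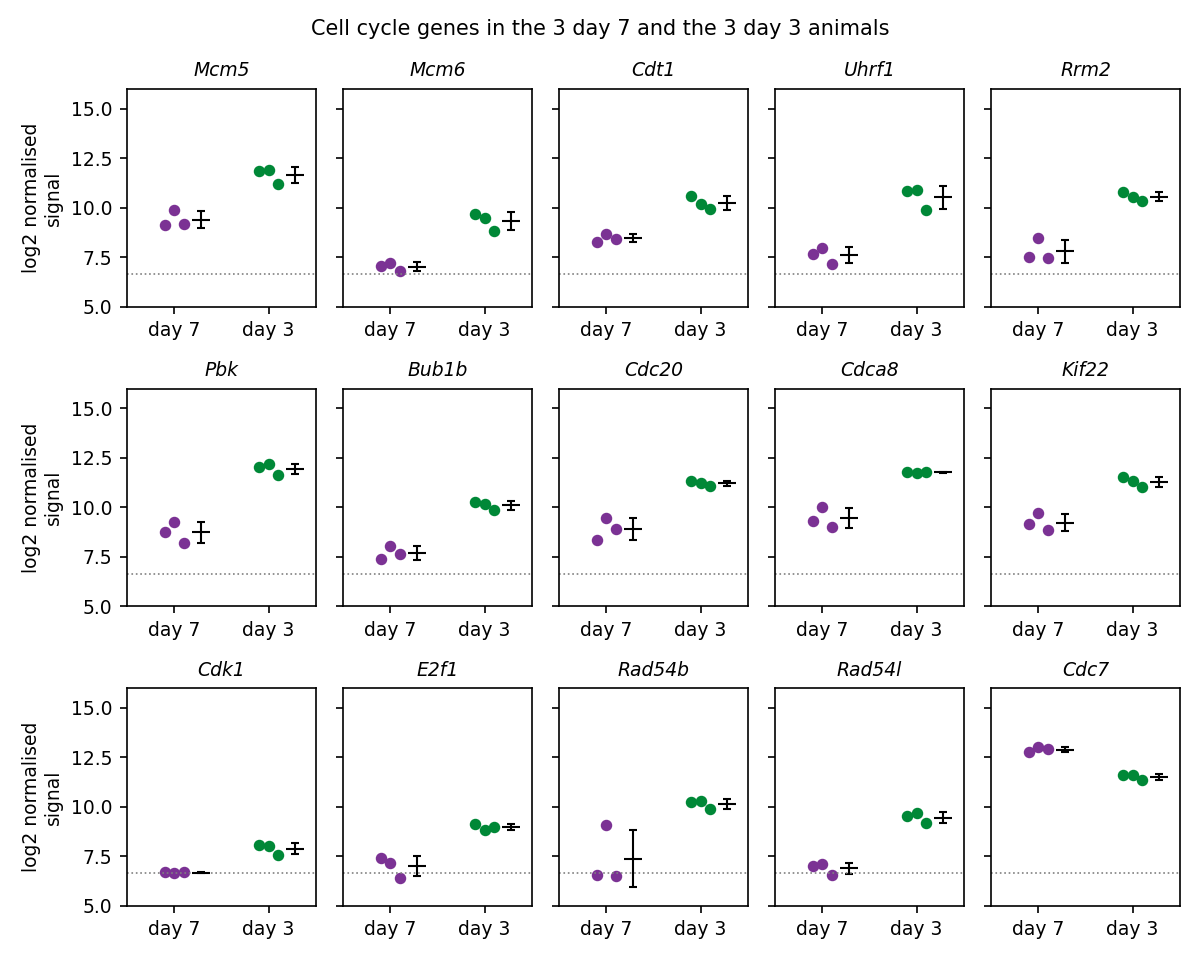
Log2 normalised signal of 15 cell cycle genes in each animal (points, replicates 1 to 3 from left to right) with the mean and SD of 3 animals (bars), day 7 left of day 3; the dotted line is the background level of 100. In 14 of the 15 panels the day 7 animals lie below the day 3 animals, with Rad54b of day 7 replicate 2 at 9.05 beside 6.52 and 6.56, and Cdc7 lies above.

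The promoters of the genes that fell were searched for the letters that E2F factors and the MuvB complex are known to bind, in the window of 250 bases before to 50 bases after each gene start in the RefSeq promoter table (GRCm38.p6). For E2F the letters were TTTCCCGC, TTTCGCGC, TTTGCCGC and TTTGGCGC, and for the cell cycle gene homology region (CHR) of MuvB targets TTTGAA and TTCGAA, on both strands. The E2F and CHR letters do not overlap with each other, but E2F matches on both strands can share bases. Of the 10571 tested genes, 8557 had a promoter in the table, of which 4.38% held E2F letters and 16.7% held CHR letters. Of the 15 genes with a promoter among those that fell in both replication lists, 9 held E2F letters (60.0%) and 4 CHR letters (26.7%). Of the 16 with a promoter among the mitosis genes that fell, 1 held E2F letters (6.25%) and 12 CHR letters (75.0%). Members of these lists that did not fall held them as well: counted over all tested members, the shares were 37.2% for E2F letters in the replication lists and 68.8% for CHR letters in the mitosis list. Over all genes with a promoter, E2F letters were in 12.7% of those that fell and 3.78% of those that rose, and CHR letters in 23.5% and 18.1% of the same groups. A match is a description of the letters and not of binding in these cells.

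The promoters of 3 replication genes and 3 genes of mitosis show how the letters sit upstream of the start. The stretches are the 250 bases before the start, 5′ to 3′ on the strand of the gene, with every match to either set of letters in capitals. Mcm5 (chr8:75109259-75109508, plus strand) holds 2 overlapping matches on opposite strands in 1 run, Mcm6 (chr1:128359706-128359955, minus strand) holds a pair of the same kind and 1 match nearer to the start, and Uhrf1 (chr17:56304063-56304312, plus strand) holds 1. Cdc20 (chr4:118437344-118437593, minus strand) and Prc1 (chr7:80294226-80294475, plus strand) hold 1 CHR match each, and Cdk1 (chr10:69352913-69353162, minus strand) holds 2 CHR matches and, farther from the start, 1 E2F match.
Mcm5: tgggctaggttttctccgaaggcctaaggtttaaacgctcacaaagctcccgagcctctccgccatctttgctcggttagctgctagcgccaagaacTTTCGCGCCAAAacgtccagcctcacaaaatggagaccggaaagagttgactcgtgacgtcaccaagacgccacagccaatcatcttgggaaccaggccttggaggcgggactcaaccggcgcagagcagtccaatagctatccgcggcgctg
Mcm6: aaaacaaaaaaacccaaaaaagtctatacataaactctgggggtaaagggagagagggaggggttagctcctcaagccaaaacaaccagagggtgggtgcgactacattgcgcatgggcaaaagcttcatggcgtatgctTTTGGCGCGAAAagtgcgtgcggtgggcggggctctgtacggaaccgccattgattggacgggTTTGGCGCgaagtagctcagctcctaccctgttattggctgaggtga
Uhrf1: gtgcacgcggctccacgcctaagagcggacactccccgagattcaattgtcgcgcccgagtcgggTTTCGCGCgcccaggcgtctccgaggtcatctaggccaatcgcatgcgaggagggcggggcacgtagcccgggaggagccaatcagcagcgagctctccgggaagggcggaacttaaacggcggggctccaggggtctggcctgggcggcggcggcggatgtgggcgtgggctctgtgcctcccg
Cdc20: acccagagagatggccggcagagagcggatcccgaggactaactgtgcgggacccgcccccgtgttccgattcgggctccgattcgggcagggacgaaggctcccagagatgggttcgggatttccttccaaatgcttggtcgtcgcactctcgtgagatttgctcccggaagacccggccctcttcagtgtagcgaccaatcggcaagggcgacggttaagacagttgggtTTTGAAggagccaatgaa
Cdk1: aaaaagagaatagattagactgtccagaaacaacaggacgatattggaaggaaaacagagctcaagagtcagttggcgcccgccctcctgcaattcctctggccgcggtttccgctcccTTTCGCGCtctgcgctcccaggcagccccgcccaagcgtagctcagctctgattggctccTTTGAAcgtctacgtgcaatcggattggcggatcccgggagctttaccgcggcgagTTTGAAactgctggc
Prc1: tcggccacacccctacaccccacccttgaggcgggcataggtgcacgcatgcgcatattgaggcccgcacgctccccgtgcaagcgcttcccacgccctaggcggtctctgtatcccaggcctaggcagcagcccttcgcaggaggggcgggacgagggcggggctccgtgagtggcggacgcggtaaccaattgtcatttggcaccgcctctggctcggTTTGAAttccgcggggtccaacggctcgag
In Cdc20, Cdk1 and Prc1 the CHR match nearest to the start begins 18, 15 and 30 bases before it, and in Mcm6 the nearest E2F match begins 47 bases before it. All 6 genes were lower in every day 7 animal than in any day 3 animal.

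Among the factors through which HR+ cells signal to their neighbours, Calca, Tnfsf11 and Wnt4 rose. Of 16 tested targets of progesterone and paracrine signals, 5 rose (31.2%, against 2.99% of all genes) and 1 fell, the coactivator Cited1, with a median of 0.23. Calca, the gene of calcitonin and a known target of progesterone in this epithelium, was at 15.51, 15.39 and 15.51 at day 7, against 12.56, 12.77 and 13.16 at day 3 (2.64, SE 0.15, adjusted p = 0.00069, limma). Its 3 other probes rose by 2.97 to 3.94, and the virgin mice were at 6.76 to 7.33 on the brightest. On 2 of the dimmer probes the day 3 means of Calca (7.13 and 6.91) were near background. Its neighbour Calcb was near background and overlapped between the days (6.76 to 7.15 at day 7, 6.56 to 6.93 at day 3).

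Tnfsf11 encodes RANKL, the signal that drives division of the receptor-negative luminal cells. It was at 10.62, 10.85 and 10.39 at day 7, against 8.64, 8.74 and 9.12 at day 3 (1.79, SE 0.17, adjusted p = 0.0019, limma), and at 6.46 to 6.81 in the virgin mice. Wnt4, the ligand that acts on basal cells and side branching, was at 9.94, 9.60 and 9.81 at day 7, against 8.07, 8.29 and 8.66 at day 3 (1.44, SE 0.17), while its dimmer probe rose by less (0.33). No day 7 animal overlapped with a day 3 animal for either gene. For Wnt4 the virgin mice (8.25 to 9.21) overlapped with day 3 and lay below every day 7 animal. Fkbp5, a co-chaperone of steroid receptors, rose by 1.45 (SE 0.20), and the clock gene Per1 by 1.19 (SE 0.19; 1.00 and not called without day 7 replicate 1).

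Of 21 steroid receptors and factors of HR+ identity, 2 rose and 2 fell (9.52% each, against 2.99% and 2.57% of all genes). Foxa1, the pioneer factor of the oestrogen receptor, was at 8.96, 9.21 and 9.01 at day 7, against 10.27, 10.19 and 10.04 at day 3 (-1.11, SE 0.11, adjusted p = 0.0021, limma), and the virgin mice were at 10.28 to 10.38. Tbx3, a T-box factor of hormone-sensing cells, was at 8.99, 8.26 and 7.74 at day 7, against 7.08, 6.95 and 6.84 at day 3 (1.38, SE 0.29), with 2 other probes at 0.01 and 0.47. In the virgin mice Tbx3 was at 7.99 to 9.67, overlapping with day 7. The days did not overlap for either gene. The coactivator Cited1 fell by 1.03 (SE 0.22), a call lost if day 7 replicate 2 (-0.96), day 7 replicate 3 (-0.96) or day 3 replicate 2 (-0.79) was left out. Hsd11b2, which inactivates glucocorticoids, rose by 1.17 (SE 0.15) from a level near background.

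The largest rise of all genes was in the IGF family. Igf2, the imprinted growth factor, was at 13.23, 13.13 and 13.66 at day 7, against 7.48, 7.54 and 7.77 at day 3 (5.74, SE 0.16, adjusted p = 0.00010, limma), a 53.6-fold difference, and the virgin mice were at 6.43 to 6.85, around background. Nearly the whole rise of Igf2 therefore fell between the days. Of 14 tested IGF genes, 5 rose (35.7%, against 2.99% of all genes) and 1 fell, and the median was 0.51. Igfbp5, which binds IGF ligands outside the cell, was at 13.51, 13.68 and 13.17 at day 7, against 10.35, 9.73 and 10.57 at day 3 (3.23, SE 0.24), and its 2 other probes rose by 2.94 and 2.91. In the virgin mice Igfbp5 was at 11.14 to 12.03, above its level at day 3. Igfals, the acid-labile subunit that holds IGF in a ternary complex, was at 11.45, 11.11 and 11.21 at day 7, against 9.00, 8.68 and 8.63 at day 3 (2.49, SE 0.14).

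The other 2 rises of the family rested on few animals. Igfbp7 was at 10.46, 9.24 and 11.47 at day 7, against 8.89, 8.96 and 7.40 at day 3 (1.97, SE 0.64, adjusted p = 0.081, limma), and Igfbp4 at 8.25, 6.92 and 8.21 at day 7, against 6.73, 6.82 and 6.60 at day 3 (1.08, SE 0.35, adjusted p = 0.080, limma). Day 7 replicate 2 lay close to the day 3 animals for both genes. With median scaling, with no filter on dim probes, and without any 1 of the arrays except day 7 replicate 2, neither was called and 3 of the 14 genes rose. Stc2, a stanniocalcin that blocks the protease which frees IGF from its binding proteins, was at 8.49, 7.58 and 8.84 at day 7, against 10.64, 10.38 and 10.84 at day 3 (-2.32, SE 0.32), and higher still in the virgin mice (12.76 to 14.04). The receptor gene Igf1r lay near background and was not called (-0.07).

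Of 16 imprinted growth genes, Igf2, Cdkn1c and Peg3 rose and Grb10 and Dcn fell (median 0.03). That is 18.8% higher and 12.5% lower, against 2.99% and 2.57% of all genes. Peg3, a zinc finger gene expressed from the paternal allele, was at 9.63, 9.82 and 10.13 at day 7, against 7.16, 7.17 and 7.41 at day 3 (2.61, SE 0.15). Grb10, an adaptor that restrains insulin and IGF receptors, was at 7.43, 7.02 and 6.79 at day 7, against 8.73, 8.81 and 8.96 at day 3 (-1.75, SE 0.17), and its other probe gave 0.02. Both genes separated the days without overlap. H19 was not analysed here.

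Other secreted growth regulators also moved apart. Mdk, the heparin-binding factor midkine, was at 12.50, 11.94 and 11.94 at day 7, against 10.29, 10.04 and 9.53 at day 3 (2.17, SE 0.24, adjusted p = 0.0027, limma), and at 7.53 to 8.04 in the virgin mice. Dkk3, a secreted protein of the Dickkopf family, was at 11.28, 11.14 and 10.56 at day 7, against 8.19, 8.01 and 7.90 at day 3 (2.96, SE 0.19), with 2.83 on its other probe. Both were far above the day 3 range in every day 7 animal. Of 25 Wnt ligands, receptors and antagonists, these changes of Dkk3 and Wnt4 and a fall of the ligand Wnt5a (-1.45, SE 0.26, other probe -0.30) were the calls. That is 8.0% higher and 4.0% lower, against 2.99% and 2.57% of all genes. Of 33 genes of TGF-beta and BMP signalling, the ligand Tgfb3 rose by 1.69 (SE 0.18) and the receptor Tgfbr2 fell by 1.45 (SE 0.17). These counts, 3.03% each, were near the 2.99% and 2.57% of all genes.

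Of the EGF family, 3 ligands fell. Epgn, the ligand epigen, was at 9.18, 8.62 and 8.47 at day 7, against 11.37, 11.51 and 11.88 at day 3 (-2.83, SE 0.22, adjusted p = 0.0011, limma). Its other probe, near background, gave -0.03. Btc, betacellulin, was at 7.54, 7.41 and 7.70 at day 7, against 9.20, 9.06 and 8.62 at day 3 (-1.41, SE 0.16). Hbegf fell by 1.14 (SE 0.22), with -0.98 without day 7 replicate 2. These 3 were among 8 tested genes of the family (37.5%, against 2.57% of all genes), none of which rose, and the median of the 8 was -0.15. Errfi1, an inhibitor of the EGF receptor that is induced by its signal, was at 13.46, 13.66 and 13.45 at day 7, against 14.84, 14.81 and 14.60 at day 3 (-1.22, SE 0.11). Among 32 guidance factors, Sema3f (1.51) and the receptor Ephb4 (1.05) rose while Sema4a (-1.23) and the ephrin Efna1 (-1.05) fell. That is 6.25% each way, against 2.99% and 2.57% of all genes. Ephb4 was not called without day 7 replicate 2 (0.94) or day 3 replicate 2 (0.93), nor Efna1 without day 3 replicate 1 (-0.98).

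Of 55 cytokine, chemokine and receptor genes, 2 rose and 2 fell (3.64% each, near the 2.99% and 2.57% of all genes). Il33, an alarmin released by damaged epithelium, was at 6.52, 6.51 and 6.59 at day 7, under background in all 3 animals, against 10.75, 11.29 and 10.97 at day 3 (-4.47, SE 0.14, adjusted p = 0.00012, limma). With the day 7 level bounded by the background, Il33 was at least 20.6-fold lower at day 7, and in the virgin mice it was at 9.75 to 11.50, near its level at day 3. Il33 was the only lower gene whose 3 day 7 arrays all lay under background. Il18r1, a receptor subunit of a related cytokine, fell by 1.51 (SE 0.33). Il19, a cytokine related to Il10, was at 9.17, 9.17 and 10.14 at day 7, against 7.11, 8.21 and 7.24 at day 3 (1.97, SE 0.37).

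Many genes of mucosal defence and complement rose. Of 25 tested, 12 rose (48.0%, against 2.99% of all genes), none fell, and the median was 0.90 against -0.01 for all genes. In 17 of the 25 the day 7 arrays all exceeded the day 3 arrays, against 17.5% of all genes. Sftpd, a collectin that binds microbial sugars, was at 11.25, 11.02 and 11.57 at day 7, against 8.45, 8.87 and 8.30 at day 3 (2.74, SE 0.19, adjusted p = 0.0010, limma). Slpi, a protease inhibitor with antimicrobial activity, was at 13.31, 13.08 and 12.91 at day 7, against 11.50, 11.34 and 11.49 at day 3 (1.66, SE 0.12), and its relatives Wfdc18 (1.57) and Wfdc12 (1.12, 0.95 with median scaling) rose with it. In the virgin mice Slpi was at 8.18 to 9.02 and Sftpd at 6.62 to 7.42, below their levels at both days. The complement genes C2 (1.60), C4b (1.48) and Cfb (1.46), the membrane inhibitor Cd59a (1.10), the mucin Muc1 (1.11) and the defensin Defb1 (1.14) rose, and Muc1 and Defb1 fell short of 2-fold without day 7 replicate 3 (1.00 and 0.93), Muc1 also without day 7 replicate 1 (0.99), and Wfdc12 without day 7 replicate 2 (1.00).

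The lysozyme genes are close relatives whose probes may share signal. Lyz1 was at 10.07, 9.82 and 9.56 at day 7, against 7.42, 6.63 and 6.71 at day 3 (2.90, SE 0.23), and Lyz2 rose by 1.41 (SE 0.09). Both are also macrophage markers, and the virgin mice spread from 7.92 to 10.39 for Lyz1. Of the macrophage markers tested besides them, C1qb had a change of 0.59 (adjusted p = 0.018, limma) near background.

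Several milk protein transcripts were higher at day 7 than at day 3. Of 13 tested genes, 5 rose (38.5%, against 2.99% of all genes) and none fell, with a median of 0.98, and 3 rose with median scaling or without day 3 replicate 2. Besides the caseins below, these were Muc1, also counted among the defence genes, and Mfge8 on a dimmer probe only. The summed signal of the list was 19020 to 30750 at day 7 and 10550 to 14510 at day 3. In the virgin mice it was 22420 to 33360. Most of this sum was the signal of Mfge8, at 14.02 to 14.64 at day 7 and 14.03 to 14.50 in the virgin mice, so it does not describe the list. For the 4 milk protein genes called on their brightest probe, all 3 day 7 arrays lay above all 3 virgin arrays. Csn2, the gene of beta-casein, was at 9.18, 9.22 and 8.57 at day 7, against 6.45, 6.57 and 6.76 at day 3 (2.40, SE 0.19, adjusted p = 0.0012, limma), where 2 of the 3 animals were under background. Csn1s2b was at 7.96, 8.46 and 7.80 at day 7, against 6.54, 6.34 and 6.72 at day 3 (1.54, SE 0.19), and Csn1s1 rose by 1.54 (SE 0.43, adjusted p = 0.052, limma), a call lost with median scaling and without day 3 replicate 2 or 3. Csn3 did not follow, with 8.20 to 10.86 at day 7, 8.62 to 10.05 at day 3 and more in the virgin mice (11.87 to 12.72). Wap was at 8.51, 7.98 and 6.38 at day 7, against 6.36 to 6.53 at day 3, and was not called (1.15, adjusted p = 0.18, limma). These genes are also markers of HR- luminal cells, and the part of such cells was not tested. Of 20 genes of the prolactin and STAT5 pathway, the feedback gene Socs2 rose (1.12, SE 0.15; 1.00 and not called without day 7 replicate 1) and no other was called.

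**Figure D3:**
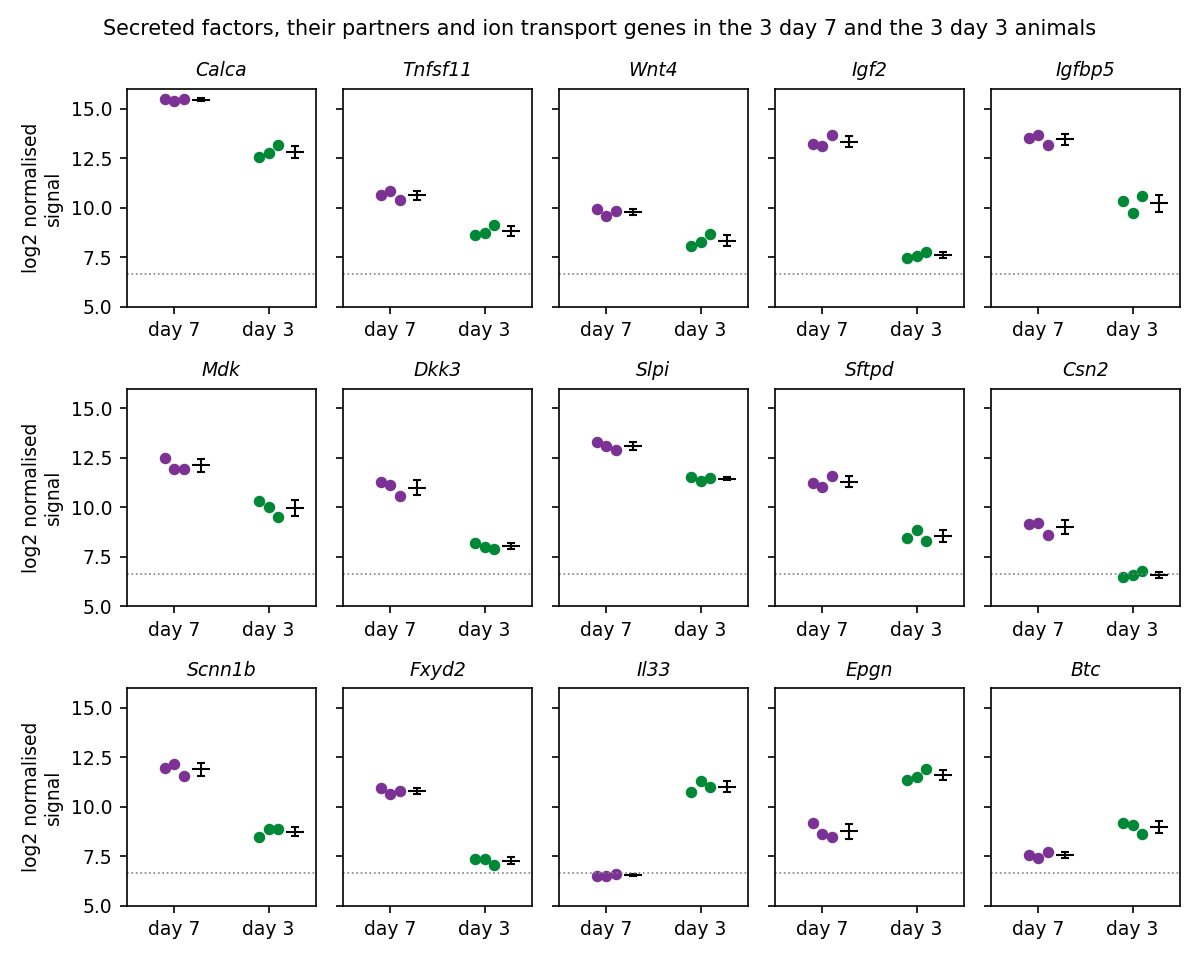
Log2 normalised signal of 15 genes of secreted factors and ion transport in each animal (points, replicates 1 to 3 from left to right) with the mean and SD of 3 animals (bars), day 7 left of day 3; the dotted line is the background level of 100. In 12 panels the day 7 animals lie above the day 3 animals, by the most in Igf2, and in those of Il33, Epgn and Btc they lie below.

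Transport genes changed in a few members only. Of 30 genes of sodium, chloride, potassium and water channels, the sodium pump and their regulators, Fxyd2, Scnn1b and Kcnk5 rose and Nedd4l and Tmprss2 fell (median 0.14). These 3 and 2 of 30 were larger shares than the 2.99% higher and 2.57% lower of all genes. Fxyd2, the gamma subunit that tunes the sodium pump, was at 10.96, 10.62 and 10.78 at day 7, against 7.35, 7.38 and 7.07 at day 3 (3.52, SE 0.13, adjusted p = 0.00015, limma), and 0.69 on its dimmer probe. In the virgin mice Fxyd2 was at 9.13 to 9.69, between the days. Scnn1b, the beta chain of the epithelial sodium channel ENaC, was at 11.95, 12.16 and 11.54 at day 7, against 8.47, 8.90 and 8.86 at day 3 (3.14, SE 0.19). The alpha subunit Scnn1a was not called (0.15, with overlap), so the subunits of the channel differed. Nedd4l, the ubiquitin ligase that removes the channel from the membrane, fell by 1.23 (SE 0.26, -0.99 without day 7 replicate 3), and Wnk4, a kinase that regulates renal salt transport and was not in that list, was at 12.30, 12.54 and 11.96 at day 7, against 10.18, 10.49 and 10.60 at day 3 (1.85, SE 0.18). The potassium channel Kcnk5 rose by 1.17, and Tmprss2, a membrane protease, fell by 1.10.

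Of 202 solute carriers, 10 rose and 3 fell (4.95% and 1.49%, against 2.99% and 2.57% of all genes). Slco2a1, which takes up prostaglandins, was at 7.80, 8.39 and 9.25 at day 7, against 11.01, 10.85 and 11.34 at day 3 (-2.59, SE 0.35), and all of its 3 probes fell. Those that rose included Slc44a4 (1.76), the glycine transporter Slc6a9 (1.60), Slc38a10 (1.46), Slc16a5 (1.39) and the mitochondrial citrate carrier Slc25a1 (1.13). The calcium pump genes Atp2a3 (1.61, other probe 0.23) and Atp2c1 (1.71, other probe 0.04) rose, and S100a6, a calcium-binding protein of HR+ cells, fell by 1.30 (SE 0.11).

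In metabolism a few enzymes of each list were called. Gldc, the glycine decarboxylase of the mitochondrial glycine cleavage system, was at 12.89, 12.02 and 12.96 at day 7, against 9.46, 9.66 and 9.21 at day 3 (3.18, SE 0.27, adjusted p = 0.0013, limma), with 0.45 on its other probe. The serine synthesis enzyme Psat1 (-1.74, SE 0.22) and the folate enzymes Mthfd2 (-1.44, SE 0.17) and Mthfd1 (-1.06, SE 0.11; -0.98 without day 3 replicate 1) fell. Of 15 genes of this network 1 rose and 3 fell (6.67% and 20.0%, against 2.99% and 2.57% of all genes). Aldoc was the only 1 of 19 glycolytic genes that was called, at 11.41, 11.30 and 11.39 at day 7 and 8.92, 8.58 and 9.14 at day 3 (2.49, SE 0.15). Pygl, which releases glucose from glycogen, rose by 2.76 (SE 0.27), with 0.37 on its dimmer probe. The regulator Hif3a was at 11.43, 11.64 and 10.85 at day 7, against 8.21, 8.42 and 8.10 at day 3 (3.06, SE 0.21), with 0.05 on its other probe. Of 23 genes of milk fat synthesis the desaturase Scd1 rose (1.72, SE 0.43), led by day 7 replicate 3 (12.29 beside 10.66 and 10.68) and not called without day 3 replicate 2 or 3, and the desaturase Fads1 was at 12.48, 12.66 and 12.61 at day 7, against 10.66, 10.38 and 10.60 at day 3 (2.03, SE 0.11). Of 15 genes of cholesterol synthesis, Lss rose (1.00), with 0.79 at the least when 1 array was left out.

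Large housekeeping complexes had medians at or a little below 0. Of 52 cytosolic ribosomal protein genes the median change was 0.00, 11 had an unadjusted p under 0.05 and Rps13 alone was called, on its dimmer probe. None of 72 mitochondrial ribosomal protein genes (median -0.15, 26 with an unadjusted p under 0.05) and none of 37 proteasome genes (median -0.22, 19 with an unadjusted p under 0.05) was called by limma or Cyber-T, where 3660 of all 10571 genes had an unadjusted p under 0.05. Of 62 subunits of oxidative phosphorylation, Atp5d rose (1.52, SE 0.10) and the median was -0.01. Of 13 chaperonin genes Cct6a fell (-1.11, just under 2-fold without day 7 replicate 2), 12 of 13 had a change below 0 and the median was -0.40, and of 44 ribosome biogenesis genes Npm1 fell (-1.12) and 36 were below 0 (median -0.18). Among 22 nucleoporins, a list chosen after their values were seen, Nup85, Nup93, Nup133 and Nup160 fell by 1.02 to 1.18 (median of the list -0.60), and the count was 2 without day 7 replicate 3 or day 3 replicate 1 and 1 without day 3 replicate 2. No gene was called by limma or Cyber-T among 11 Notch genes (4 with an unadjusted p under 0.05), 15 of MHC class I (6), 7 of MHC class II (4), 16 heat shock proteins (4) and 14 of the Bcl2 family (5).

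**Figure D4:**
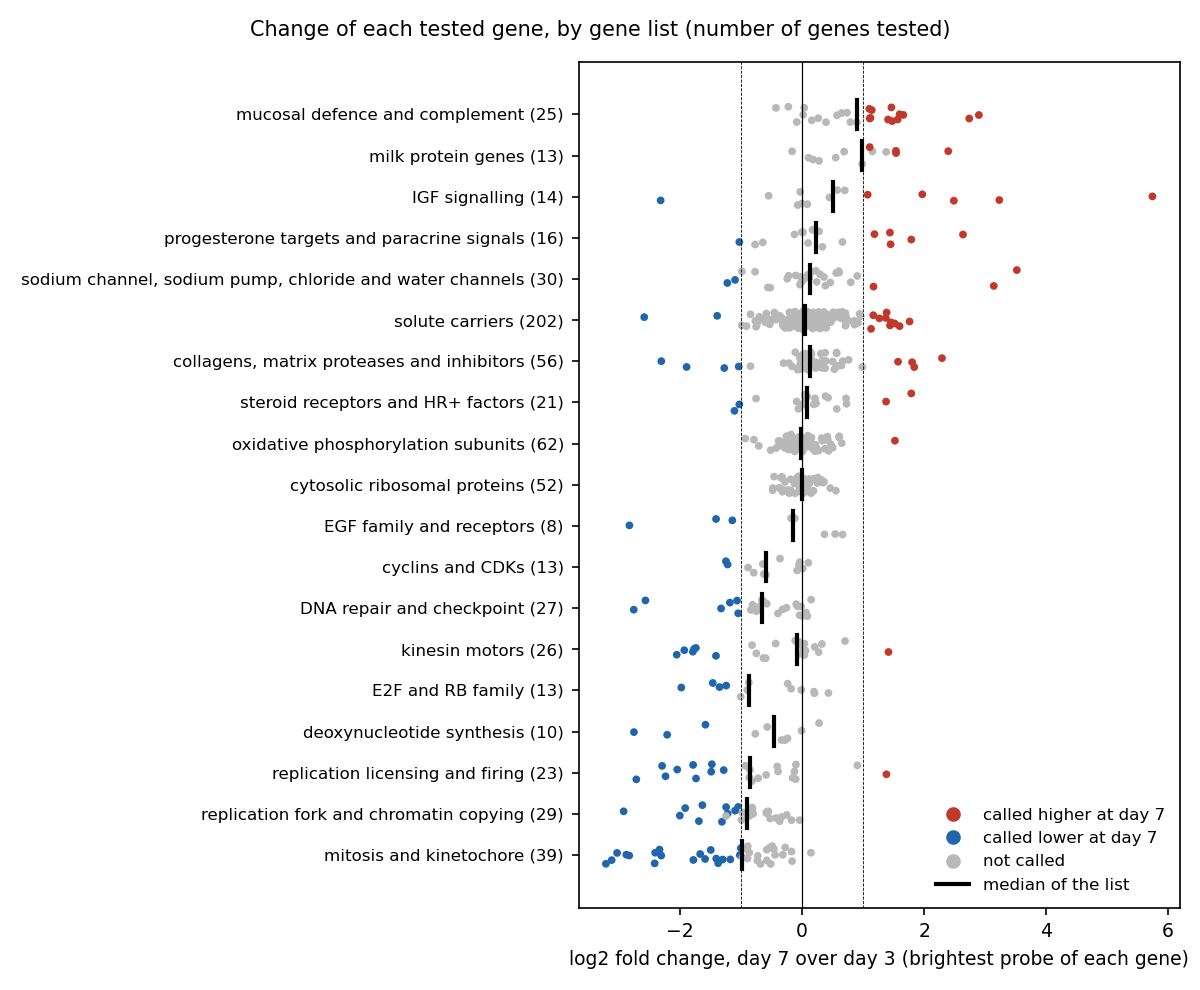
Log2 fold change of day 7 over day 3 for every tested gene of 19 lists (points, 1 per gene on its brightest probe), coloured red where called higher, blue where called lower and grey otherwise, with the list median as a black bar and the 2-fold limits dashed. The lists of mitosis (median -0.98), the replication fork (-0.90) and licensing (-0.86) lie to the left, those of milk protein (0.98) and mucosal defence (0.90) to the right, and cytosolic ribosomal proteins at 0.00.

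Of 56 collagens, matrix proteases and their inhibitors, 4 rose and 4 fell (7.14% each, against 2.99% and 2.57% of all genes), and 7 rose with normexp background correction. Mmp14, the membrane protease that activates gelatinase, was at 9.10, 8.99 and 8.57 at day 7, against 6.77, 6.52 and 6.49 at day 3 (2.29, SE 0.16), and the protease Adamts7 rose by 1.84. Dcn, the proteoglycan decorin, was at 8.67, 9.32 and 9.21 at day 7, against 11.18, 11.51 and 11.43 at day 3 (-2.31, SE 0.19), and Fbln1 (-1.28) and the inhibitor Timp2 (-1.04; -0.95 without day 3 replicate 3) fell. Dcn and Fbln1 are also fibroblast markers, and the fibroblast genes Col1a2, Col3a1 and Pdgfra lay near background at both days. Bgn (1.80) and Mmp13 (-1.89) were called with a wide spread, Mmp13 being lost without day 3 replicate 1 (adjusted p = 0.16, limma) without any 1 of the day 7 animals, with no filter on dim probes and in the fit with the virgin arrays, and Bgn without day 3 replicate 1 or 3. Adhesion and keratin genes had few calls. Krt16 (-2.07) fell among 18 keratins, the desmosomal Dsg2 (-1.20) and the claudin Cldn4 (-1.09) among 32 genes of junctions and cadherins, and the integrin subunit Itgb6 (-1.55) among 22 integrins and laminins, of which 16 had a change above 0 without a call. The caveolae genes Cav1 (-1.75) and Cavin3 (-1.50) fell among 7 tested, and the membrane protein Emp1 (-2.40) and Ly6d (-1.87) fell too. The matrix chaperone Serpinh1 rose by 1.49.

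The remaining genes with the largest changes fit no list. Nrep, a neuronal regeneration protein, was at 13.44, 12.83 and 13.27 at day 7, against 9.14, 8.81 and 9.35 at day 3, a 16.9-fold rise (4.08, SE 0.20, adjusted p = 0.00042, limma). Rasl11b, a small GTPase, was at 12.02, 11.74 and 12.28 at day 7, against 8.57, 8.25 and 10.09 at day 3 (3.04, SE 0.46), with day 3 replicate 3 nearer to day 7 than the others. In the virgin mice Rasl11b was at 10.67 to 11.04, between the days. Neurl1a (2.75), Lgi2 (2.74), the calcium release channel Itpr2 (2.72), the adhesion protein Amigo2 (2.72) and the galectin Lgals7 (2.50) rose. The dimmer probe of Amigo2 was called as well (1.95), while those of Itpr2 (0.28) and Lgals7 (0.47 and 0.27) were not. The transcription factor Sox4 was at 8.76, 8.55 and 9.28 at day 7 and under background in all 3 day 3 animals, at least 4.65-fold higher at day 7, while the virgin mice were at 7.83 to 8.46. On the other side, the flavin monooxygenase Fmo1 was at 7.95, 8.90 and 8.69 at day 7, against 11.49, 11.34 and 11.39 at day 3 (-2.89, SE 0.23), and at 7.40 to 8.40 in the virgin mice, so its high level was that of day 3 alone. The fatty acid receptor Ffar4 was at 6.50, 6.45 and 6.68 at day 7, under background in 2 of the 3 animals, against 10.48, 9.48 and 8.14 at day 3 (adjusted p = 0.014, limma). Itih2 fell by 2.38 (SE 0.10).

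Smaller groups had single members that changed. The circadian output gene Dbp rose by 1.78 with Per1, of 12 clock genes. Gpx3 (1.78) and Gsta4 (1.92) rose and Gstm2 (-1.17) fell among 28 antioxidant genes, and the stress gene Chac1 fell by 2.01 (adjusted p = 0.19 in the fit with the virgin arrays, limma) and no other of 32 genes of protein folding in the endoplasmic reticulum was called. Of 42 early response genes Gadd45b rose (1.62) and Fosl2 (-1.30) and Ccn1 (-1.48) fell, 4 without day 7 replicate 3. The shares, 2.38% and 4.76%, stood against 2.99% and 2.57% of all genes. The calls of Fosl2 and Ccn1 were lost with median scaling and without day 3 replicate 2, that of Fosl2 also without day 7 replicate 2 or day 3 replicate 1. The virgin means of Dbp (10.80), Gpx3 (13.47) and Gadd45b (10.82) lay above their day 7 means (9.13, 13.01 and 10.41). In lists chosen after their values were seen, 3 of 7 apolipoprotein genes rose (Apof 2.42, Apoc1 2.05, Apoe 1.81), 6 of 47 lysosomal genes rose (among them Gm2a 1.84, Ctsh 1.40 and Smpd1 1.29) and 2 fell, and 2 of 39 histone genes of the replication clusters rose (H2bc6 2.11, H2ac18 2.06) while none fell. The 2 other probes of H2bc6 gave -0.12 and -0.36. Apoe was called with all 6 arrays and not without day 3 replicate 1 or 2.

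Set beside the virgin mice, as a description without a test, the genes called on their brightest probe fell into several kinds. Of the 303 that rose, the virgin mean lay below the day 3 mean for 125, between the means of both days for 155 and above the day 7 mean for 23. Of the 260 that fell, the virgin mean lay below the day 7 mean for 92, between the days for 102 and above the day 3 mean for 66. The day 7 mean lay within the range of the 3 virgin arrays for 36 of the genes that rose and 44 of those that fell. Of the 12 defence genes that rose, the day 7 mean exceeded the virgin mean for all 12, and of the 3 EGF ligands that fell for none.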

How the data were processed

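HR+ cells of 3 mice at day 7, 3 at day 3 of pregnancy and 3 virgin mice were measured on 1 Illumina bead array each. The authors deposited a table of non-normalised intensity for each array, and a table of log2 values, which they quantile normalised in Partek Genomics Suite. No background correction is stated. The deposited log2 values were used, and they differed by 0.0239 on average from a quantile normalisation of the deposited intensity made here. The software that summarised beads is not given in the sources used here, and the detection p columns hold no values.

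Probes with a mean signal of 100 (the background set in the study) in at least 1 of both days were fitted with limma 3.58.1 in R 4.3.3 on the 6 arrays, with Benjamini-Hochberg adjustment. The thresholds, a fold of 2 and an adjusted p of 0.10, are those of the study's methods, whose Cyber-T was run as an alternative. Where all arrays of a group lay under background, the fold is a bound against 100, and where only some did the fitted change is given. The code of the fit was run on simulated independent normal values with planted changes. That run checks the code and not how well the model suits these arrays. Gene names came from the platform annotation checked against RefSeq, with 51 further probes (Calca among them) named from the study's list of secreted factors, and 10327 probes had no symbol. Where a gene had several probes, the brightest over the 6 arrays gives its value. Dimmer probes often changed less, many of them near background, and are given for some genes only.

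Genes named are the 20 that changed most either way among called genes without overlap, those the study names, and, per list, up to 8 by size of change and 4 more in list order. The members and lists were chosen with earlier results of these data known. The p-values measure the spread between the arrays of separate animals, and 3 arrays per stage limit the precision. The replicate numbers do not pair the animals. Promoters came from the RefSeq promoter table (GRCm38.p6). Plots used matplotlib 3.10.9 under Python 3.11.15. Alternatives covered the normalisation, background correction, filter, arrays in the fit, test, array weights, thresholds, probe choice, replicate block and each array left out.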

Additional observations from a re-analysis of the deposited data

How the results depend on the processing

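The counts of 316 genes higher and 272 lower at day 7 stayed within 1.5 times under every alternative run except that of no minimum fold, which gave 1509 and 1776. They were 291 and 378 with median scaling, 335 and 279 with Cyber-T, and 388 and 377 with normexp correction. Leaving out 1 array gave 276 to 344 higher and 234 to 317 lower, with the lowest counts without day 3 replicate 2. With the replicate number as a block they were 312 and 273. The deviations of arrays with the same number correlated at -0.016, 0.0053 and 0.014, and day 7 replicate 1 correlated better with day 3 replicate 2 than with replicate 1, so the numbers were not taken to pair the animals. Of 208 named genes 183 were called on their brightest probe, and 148 of these kept the call under all 22 settings run for them, while 33 lost it without 1 array and 14 under another setting. The settings of no minimum fold and of the brightest probe only are among the 22 and could not remove such a call. The named genes that changed sign had no call. With 1 array left out, Pgr was at -0.11 to 0.19, Esr1 at -0.0048 to 0.12, Csn3 at -0.52 to 0.81, Cdkn1a at -0.15 to 0.0033, Csf1r at -0.061 to 0.026 and Col1a2 at -0.047 to 0.0010, and Pgr was at -0.016 with median scaling. Signal over background set a limit for 7 genes higher at day 7 with all day 3 arrays under background and for 1 lower with all day 7 arrays under it, whose folds are bounds.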
